A study of Mus musculus with 6 samples.

Results

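The autophagy and lysosome genes described here are 32 genes taken by symbol from the 24354 genes of the deposited table: 20 of the autophagy machinery and its cargo receptor Sqstm1, the transcription factors Tfeb and Tfe3, and 10 of the lysosome. All 32 had 1 row each, and each averaged 1 FPKM or more across the 6 libraries, the level needed to be tested. Of the 6 libraries, 3 came from mouse embryos homozygous for Pik3ca H1047R (labelled Pik3caH1047R/H1047R and called mutant below), and 3 from WT embryos. Pik3ca encodes the p110α catalytic subunit of class I phosphoinositide 3-kinase (PI3K), and H1047R makes this enzyme more active. Both groups were taken at E18.5, shortly before birth, carry the strain label C57BL6, and are epidermal cells that a cell sorter selected for abundant α6 integrin, which anchors basal keratinocytes to laminin. The sources used here do not say in which cells or by which driver the mutant allele is expressed, nor whether each sample is a different embryo. The p-values therefore rest on the spread between these samples alone, which may be technical.

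Autophagy encloses cytoplasm in a double membrane, the autophagosome, and delivers it to the lysosome for breakdown. The ULK1 kinase complex starts the process, a class III PI3K complex (a different enzyme from the class I PI3K of the mutant) marks the membrane with the lipid PI3P, and a conjugation machinery attaches small ATG8 proteins to that membrane, where cargo receptors such as p62 (Sqstm1) bind them. Lysosomal membrane proteins and acid hydrolases complete the breakdown. Class I PI3K signalling through AKT and mTORC1 is known to restrain autophagy by phosphorylating ULK1 and the lysosomal transcription factor TFEB, and AKT restrains the FOXO factors, which in mouse muscle raise the transcription of several ATG8 genes. In the epidermis, lysosomal proteases such as cathepsins D and L are known for their part in keratinocyte differentiation. Protein phosphorylation, lipidation and autophagic flux were not measured by this assay.

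The values are FPKM, fragments per kilobase of transcript scaled to a library total, so levels can be set side by side between genes. They summed to between 538627 and 651769 FPKM in mutant libraries, and to between 656761 and 767148 FPKM in WT libraries. The number of reads is unknown. Between 11242 and 11351 genes reached 1 FPKM in a library. Differences were tested with limma on log2(FPKM + 1) over all 11385 genes that passed the filter, with Benjamini-Hochberg adjusted p-values and a threshold of 0.05. A fold is the ratio of mean FPKM, and a log2 fold change is mutant minus WT of log2(FPKM + 1), a scale that shrinks changes of low genes. Of 6 basal keratinocyte markers, 3 were called lower and 0 higher by limma, beside 22.8% lower and 23.2% higher among all genes tested. Krt5 was at 11977 ± 919 FPKM in mutant and 12028 ± 155 FPKM in WT libraries (SD, n = 3 each) and did not pass, and nor did Krt14 or Trp63. The lower ones were Itga6, the α6 integrin gene of the sort, at 123 ± 2.13 FPKM in mutant and 163 ± 7.55 FPKM in WT libraries, its partner Itgb4, at 92.7 ± 4.64 and 157 ± 13.3 FPKM, and Col17a1, at 402 ± 14.1 and 517 ± 54.4 FPKM (SD, n = 3 each).

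Mutant libraries held less mRNA of all 5 ATG8 genes, of Sqstm1, of Atg14 and of cathepsin L (Ctsl), and more of Tfeb, whereas most lysosomal genes did not pass the test. Of the 32 genes, 15 were lower, 3 were higher and 14 did not pass. Among all genes tested, 22.8% were called lower and 23.2% higher, and 46% were called in either direction. The 20 autophagy genes held 12 of the lower calls and 2 of the higher ones (Ulk2 and Atg9a). The 10 lysosomal genes held 2 lower calls (Ctsl and Ctsz) and 0 higher ones, at the threshold used. The median log2 fold change was -0.25 over the autophagy genes and -0.07 over the lysosomal genes, beside 0.01 over all genes tested. The groups did not overlap for 21 of the 32 genes, 17 lower and 4 higher in mutant libraries, against 26.9% lower and 29.1% higher, or 56% in either direction, among all genes tested.

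The split of calls depended on how libraries were scaled to each other. When each library was scaled to the same total FPKM, the median gene moved to a log2 fold change of 0.30, and 11 of the 32 genes were called higher and 6 lower. Over all 11385 genes tested this scaling gave 5375 higher and 842 lower calls, against 2642 higher and 2592 lower with the values as deposited. With equal totals the share called higher was thus smaller among the 32 genes than among all genes, and the share called lower was larger. The 6 that stayed lower were Gabarapl1, Ctsl, Sqstm1, Map1lc3a, Atg14 and Map1lc3b. Relative to the median gene, the median of the 32 genes was -0.17 as deposited and -0.15 with equal totals. Directions below are those of the deposited values.

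**Figure D1:**
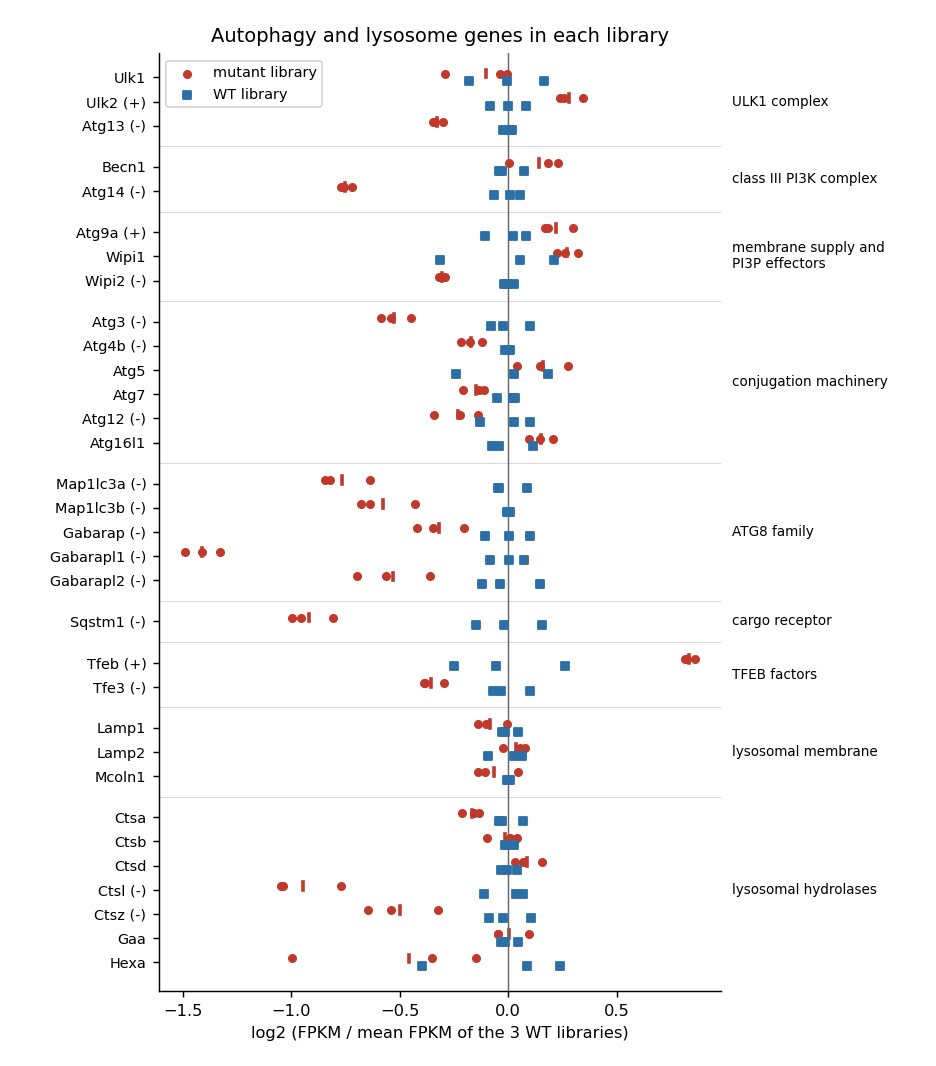
Each row is 1 of the 32 genes, grouped by role. Points show log2 of FPKM over the mean FPKM of the 3 WT libraries, with circles for the mutant libraries, squares for the WT libraries and a vertical tick at the mutant mean, and (+) or (-) after a symbol marks a call as higher or lower. The ATG8 genes, Sqstm1 and Ctsl lie left of the WT libraries, Tfeb lies right of them, and the mutant points of Lamp2, Ctsb and Gaa lie on both sides of the WT mean.

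The ATG8 family, the ubiquitin-like proteins that coat the autophagosome membrane, had lower mRNA in mutant libraries. With the deposited values, 5 of its 5 genes were called lower, against 22.8% of all genes tested. The calls of Gabarap and Gabarapl2 depended on the setting. The median log2 fold change was -0.57. Gabarapl1 fell most. It stood at 30.5, 32.2 and 34.1 FPKM in the mutant libraries, against 90.2, 86.0 and 81.0 FPKM in the WT libraries. Every mutant value was less than every WT value by a wide margin, and the fall was 2.66-fold (log2 fold change -1.38, SE 0.0675, limma adjusted p = 8.35e-06). Of the 11385 genes tested, 158 (1.39%) had a lower log2 fold change. It was also the only one of the 32 genes for which the authors' deposited intervals separated the groups: the highest upper bound was 44.9 FPKM in mutant libraries and the lowest lower bound was 54.4 FPKM in WT libraries.

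Map1lc3a and Map1lc3b encode LC3A and LC3B, the ATG8 proteins most used to follow autophagosomes. Map1lc3a was at 34.2, 34.8 and 39.4 FPKM in mutant libraries, against 65.3, 59.7 and 59.4 FPKM in WT libraries. Map1lc3b was at 60.3, 62.0 and 71.7 FPKM in mutant libraries, against 96.9, 96.5 and 96.0 FPKM in WT libraries. For each gene the groups lay apart, and the WT values of Map1lc3b were almost level while mutant replicate 3 was the highest of its group. The falls were 1.70-fold for Map1lc3a (log2 fold change -0.75, SE 0.0740, limma adjusted p = 0.000176) and 1.49-fold for Map1lc3b (-0.57, SE 0.0750, limma adjusted p = 0.000678).

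Gabarapl2, which encodes GATE-16, stood at 38.5, 42.3 and 48.7 FPKM in mutant libraries, against 69.2, 60.9 and 57.5 FPKM in WT libraries (log2 fold change -0.53, limma adjusted p = 0.0041). Gabarap, the most abundant of the family in FPKM, stood at 110.6, 116 and 128 FPKM in mutant libraries, against 158, 148 and 137 FPKM in WT libraries (log2 fold change -0.32, limma adjusted p = 0.0151). The groups of both genes lay apart, but those of Gabarap by less. The call of Gabarap was lost without mutant replicate 1 (limma adjusted p = 0.0542), mutant replicate 2 (0.0578), WT replicate 1 (0.0551) or WT replicate 2 (0.0503). Quantile normalization also ended it: the difference was then -0.08 on the log2 scale (limma adjusted p = 0.191), which is -0.11 relative to the median gene. With equal totals Gabarap turned to 0.01 and Gabarapl2 to -0.20 on the log2 scale, neither past the threshold, which is -0.29 and -0.50 relative to the median gene.

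**Figure D2:**
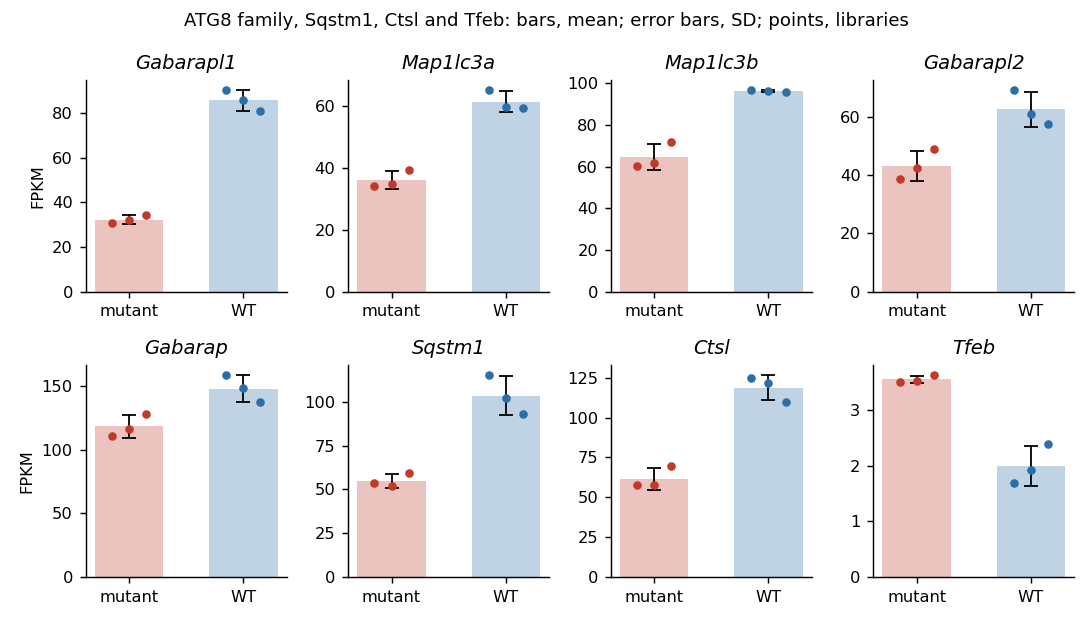
FPKM of the ATG8 genes, Sqstm1, Ctsl and Tfeb in mutant (left) and WT (right) libraries. Bars show the mean, error bars the SD (n = 3 each) and points the libraries. In each panel but that of Tfeb, the 3 mutant values lie under the 3 WT values, and for Tfeb they lie above them.

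The make-up of the family also differed. The shares below are of the deposited FPKM, so a single scaling factor per library leaves them as they are, whereas quantile normalization can change them and was not applied to them. The 5 genes summed to 274, 288 and 322 FPKM in mutant libraries, against 480, 451 and 431 FPKM in WT libraries. Gabarapl1 made up 11.1%, 11.2% and 10.6% of this sum in mutant libraries, against 18.8%, 19.1% and 18.8% in WT libraries. Gabarap made up 40.3%, 40.4% and 39.8% in mutant libraries, against 33.0%, 32.8% and 31.8% in WT libraries. Gabarapl1 thus lost share and Gabarap gained it, with no overlap between groups. The shares of the other 3 genes differed less: Map1lc3a held 12.3% ± 0.180 of the sum in mutant and 13.5% ± 0.283 in WT libraries, Map1lc3b 21.9% ± 0.356 and 21.3% ± 1.04, and Gabarapl2 14.6% ± 0.532 and 13.7% ± 0.581 (SD, n = 3 each). There were 3.67 ± 0.0857 FPKM of Gabarap for each FPKM of Gabarapl1 in mutant libraries, and 1.72 ± 0.0308 in WT libraries (SD, n = 3 each).

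**Figure D3:**
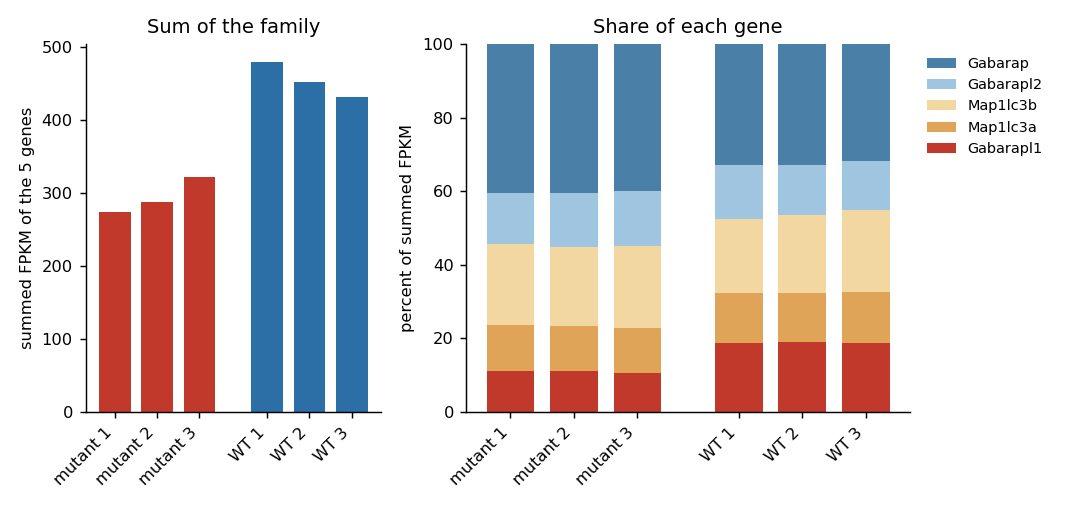
Left, summed FPKM of the 5 ATG8 genes in each library, mutant libraries first. Right, the percent of that sum from each gene. The mutant sums lie between 274 and 322 FPKM and the WT sums between 431 and 480 FPKM, and the Gabarapl1 band is about 11% in mutant and about 19% in WT libraries.

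No stretch of 50 bases was shared between the annotated transcripts of any pair of these 5 genes. Map1lc3b shared 5.77% and Gabarapl2 12.2% of such stretches with other annotated genes, while Map1lc3a, Gabarap and Gabarapl1 shared 0%. Exons of Gabarapl1 overlap those of 1700101I11Rik on the other strand, which was at 0.0512 FPKM in mutant and listed at 0 in WT libraries. Exons of Map1lc3b overlap those of Zcchc14 on the other strand (8.81 FPKM in mutant and 7.61 FPKM in WT libraries). The sources used here do not say whether reads were counted by strand.

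The promoter of Gabarapl1, the gene with the largest fall, is shown whole, from 250 bases before to 50 after the RefSeq start (GRCm38.p6, chr6:129532942-129533241, plus strand). It held none of the 3 motifs searched on both strands. These were CACGTG (the E-box core), TCACGTGA (the core of the CLEAR element bound by TFEB and TFE3, which contains CACGTG) and GTAAACA (a FOXO motif). Only this spelling of the FOXO motif was searched. The promoter holds ataaaca, which differs from GTAAACA in the first base and was not counted.
Gabarapl1: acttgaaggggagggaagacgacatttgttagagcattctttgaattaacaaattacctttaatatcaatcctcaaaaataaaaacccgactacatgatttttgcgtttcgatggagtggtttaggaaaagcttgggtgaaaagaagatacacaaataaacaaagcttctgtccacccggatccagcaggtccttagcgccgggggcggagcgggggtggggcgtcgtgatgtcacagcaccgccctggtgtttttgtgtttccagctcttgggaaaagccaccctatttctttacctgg

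Sqstm1 encodes p62, which binds ubiquitinated cargo and ATG8 proteins and is itself degraded by autophagy. It was at 53.5, 51.9 and 59.3 FPKM in mutant libraries, against 115, 102 and 93.4 FPKM in WT libraries. The groups lay far apart, and the fall was 1.89-fold (log2 fold change -0.90, SE 0.0902, limma adjusted p = 0.000187). The call and direction held in all 17 alternative settings, with log2 fold changes between -0.97 and -0.57. Its exons overlap those of Mrnip on the other strand, a gene not matched by that symbol in the table.

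In the ULK1 complex, which receives the mTORC1 and AMPK signals, 1 of the 3 members was called lower and 1 higher. Over all genes tested, 22.8% were called lower and 23.2% higher. The other subunits of the complex, in the list of the wider pathway, were lower by more: Rb1cc1, the scaffold FIP200, was at 12.0 ± 0.477 FPKM in mutant and 17.3 ± 0.753 FPKM in WT libraries (SD, n = 3 each; log2 fold change -0.50, limma adjusted p = 0.000484). Atg101, the partner of ATG13, was at 26.1 ± 1.56 FPKM in mutant and 39.2 ± 1.42 FPKM in WT libraries (SD, n = 3 each; log2 fold change -0.57, limma adjusted p = 0.000328). Both lost the call with equal totals (-0.19 for Rb1cc1 and -0.25 for Atg101) and kept it in the other alternatives. Atg13, the adaptor subunit, fell to 17.1 ± 0.279 FPKM in mutant libraries, against 21.4 ± 0.339 FPKM in WT libraries (SD, n = 3 each; log2 fold change -0.31, limma adjusted p = 0.0021). With equal totals it was at 0.00 on the log2 scale (0.00274) and was not called. The kinase gene Ulk2 was at 4.70, 5.06 and 4.75 FPKM in mutant libraries, against 3.75, 3.98 and 4.22 FPKM in WT libraries (log2 fold change 0.23, limma adjusted p = 0.0316). The Ulk2 groups lay apart, but the call was lost without any one of 5 libraries, mutant replicates 1, 2 and 3 and WT replicates 1 and 2 (adjusted p = 0.0521 to adjusted p = 0.11). Ulk1, the main initiating kinase, was at 21.4 ± 2.24 FPKM in mutant and 23.0 ± 2.75 FPKM in WT libraries (SD, n = 3 each), and did not pass (limma adjusted p = 0.464).

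Of the class III PI3K complex, Atg14 fell and Becn1 did not pass. Atg14, the subunit that directs the complex to autophagosome formation, was at 5.92, 5.995 and 6.14 FPKM in mutant libraries, against 10.2, 9.67 and 10.5 FPKM in WT libraries. The values were tight within each group, and the fall was 1.68-fold (log2 fold change -0.66, SE 0.0605, limma adjusted p = 0.000118). Becn1, the beclin 1 subunit shared with other class III PI3K complexes, was at 39.4 ± 3.18 FPKM in mutant and 35.7 ± 1.62 FPKM in WT libraries (SD, n = 3 each; limma adjusted p = 0.166). It was called higher with equal totals (0.46) and with quantile normalization (0.20), which is 0.16 relative to the median gene in each. Exons of Atg14 and Becn1 each overlap a gene on the other strand, of which Cntd1, beside Becn1, was at 0.697 FPKM in mutant and 0.688 FPKM in WT libraries.

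Among the genes that supply or read the forming membrane, Wipi2 fell and Atg9a rose. Wipi2, the PI3P reader that recruits ATG16L1, was at 16.9, 16.5 and 16.8 FPKM in mutant libraries, against 21.001, 20.6 and 20.4 FPKM in WT libraries (log2 fold change -0.29, limma adjusted p = 0.0029). It was at 0.03 with equal totals. Atg9a, the scramblase carried on vesicles to the growing membrane, was at 14.3, 13.1 and 13.2 FPKM in mutant libraries, against 10.8, 11.8 and 12.3 FPKM in WT libraries (log2 fold change 0.20, limma adjusted p = 0.0425). This call was lost without mutant replicate 1, 2 or 3 or WT replicate 1 or 2 (adjusted p = 0.0579 to adjusted p = 0.14), and 30.2% of the 50-base stretches of its transcripts are shared with other genes, most with the overlapping Gm29253. Exons of Atg9a also overlap those of Ankzf1 on the other strand. Ankzf1 was at 9.83 FPKM in mutant and 7.82 FPKM in WT libraries (log2 fold change 0.30, limma adjusted p = 0.133). Wipi1, another PI3P reader, was at 3.18 ± 0.108 FPKM in mutant and 2.64 ± 0.475 FPKM in WT libraries (SD, n = 3 each; limma adjusted p = 0.146). It was called higher with equal totals (0.45) and with library weights (0.33), which is 0.15 and 0.33 relative to the median gene.

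The conjugation machinery held 3 lower and 0 higher calls among 6 genes, beside 22.8% lower and 23.2% higher among all genes tested. Atg3, the E2-like enzyme that transfers ATG8 proteins to lipid, was at 17.1, 17.7 and 18.8 FPKM in mutant libraries, against 27.6, 25.2 and 24.3 FPKM in WT libraries. The groups lay apart and the fall was 1.44-fold (log2 fold change -0.50, SE 0.0679, limma adjusted p = 0.000818). Atg4b, the protease that trims and recycles ATG8 proteins, and Atg12, the ubiquitin-like partner of ATG5, were lower by less. Atg4b was at 17.4 ± 0.607 FPKM in mutant and 19.6 ± 0.167 FPKM in WT libraries (SD, n = 3 each; limma adjusted p = 0.0400), and Atg12 at 19.1 ± 1.33 and 22.4 ± 1.81 FPKM (limma adjusted p = 0.04997).

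Atg4b and Atg12 lay close to the threshold. Both lost the call without mutant replicate 1 or 2 or WT replicate 1 or 2, and Atg4b also without WT replicate 3 (adjusted p = 0.0621 to adjusted p = 0.156 over these). With equal totals both had a log2 fold change above 0, 0.15 for Atg4b and 0.10 for Atg12, and Atg3 was at -0.18 and was not called. The E1-like enzyme Atg7 was at 13.5 ± 0.454 FPKM in mutant and 14.96 ± 0.448 FPKM in WT libraries (SD, n = 3 each; limma adjusted p = 0.0758). Atg5 and Atg16l1, the other parts of the ligase that places ATG8 proteins on the membrane, had overlapping groups and did not pass (limma adjusted p = 0.261 for Atg5 and adjusted p = 0.135 for Atg16l1). With equal totals Atg5 (0.47) and Atg16l1 (0.44) were called higher, which is 0.17 and 0.14 relative to the median gene. Library weights also called Atg16l1 higher (0.14).

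The transcription factors moved in opposite directions. Tfeb, a master regulator of lysosomal and autophagy genes, was at 3.51, 3.53 and 3.63 FPKM in mutant libraries, against 1.68, 1.92 and 2.39 FPKM in WT libraries. The mutant values were nearly level, and Tfeb rose 1.78-fold (log2 fold change 0.61, SE 0.101, limma adjusted p = 0.00211). Its level was low in FPKM, and the authors' deposited intervals of the groups overlapped. Tfe3, its relative, was at 21.9, 20.5 and 20.6 FPKM in mutant libraries, against 25.5, 26.2 and 28.8 FPKM in WT libraries (log2 fold change -0.34, limma adjusted p = 0.00383). With equal totals Tfe3 was at -0.02 and was not called, while Tfeb was at 0.85 and was called.

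At the lysosomal membrane, none of the 3 genes passed the test with the deposited values. Lamp1, an abundant membrane glycoprotein, was at 119.8, 117 and 128 FPKM in mutant libraries, against 127, 133 and 126 FPKM in WT libraries. Lamp2, which is also needed for chaperone-mediated autophagy, was at 68.2, 73.1 and 71.9 FPKM in mutant libraries, against 70.6, 72.3 and 64.9 FPKM in WT libraries. Mcoln1, the calcium channel TRPML1, was at 8.52 ± 0.596 FPKM in mutant and 8.91 ± 0.0417 FPKM in WT libraries (SD, n = 3 each). The groups of all 3 overlapped, with limma adjusted p = 0.316 for Lamp1, adjusted p = 0.662 for Lamp2 and adjusted p = 0.48 for Mcoln1. With equal totals Lamp1 (0.25) and Lamp2 (0.36) were called higher, which is -0.06 and 0.06 relative to the median gene. Quantile normalization also called Lamp1 (0.15) and Lamp2 (0.17) higher, which is 0.11 and 0.13 relative to the median gene. Library weights called Lamp1 lower (-0.14).

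The lysosomal hydrolases held a large fall of one cathepsin beside several that did not pass. Ctsl, the cysteine protease cathepsin L, was at 57.6, 57.9 and 69.7 FPKM in mutant libraries, against 125, 122 and 109.98 FPKM in WT libraries. The groups lay far apart, and the fall was 1.93-fold (log2 fold change -0.94, SE 0.0909, limma adjusted p = 0.000163), with the call and direction kept in all 17 alternatives. Of the 50-base stretches of its transcripts, 6.46% are shared with other genes, most with the overlapping Gm49230. Ctsz, the carboxypeptidase cathepsin Z, was at 25.0, 23.2 and 29.0 FPKM in mutant libraries, against 39.1, 35.8 and 34.1 FPKM in WT libraries (log2 fold change -0.48, limma adjusted p = 0.00357). With equal totals the call of Ctsz was lost (-0.16). Its exons overlap those of Nelfcd on the other strand, which rose to 26.8 FPKM in mutant libraries, against 20.6 FPKM in WT libraries.

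Cathepsins D and B, the aspartic and cysteine proteases with roles in bulk protein breakdown, did not pass. Ctsd was at 104, 101 and 110.1 FPKM in mutant libraries, against 102, 98.5 and 96.8 FPKM in WT libraries (limma adjusted p = 0.296). Ctsb was at 51.9, 55.7 and 57.1 FPKM in mutant libraries, against 56.6, 54.9 and 55.1 FPKM in WT libraries (limma adjusted p = 0.827). Its exons overlap those of Fdft1 on the other strand (30.2 FPKM in mutant and 27.7 FPKM in WT libraries). With equal totals Ctsd (0.41) and Ctsb (0.31) were called higher, which is 0.11 and 0.006 relative to the median gene. Quantile normalization also called Ctsd higher (0.28, limma adjusted p = 0.00193), which is 0.25 relative to the median gene. Of the 50-base stretches of Ctsd, 32.4% are shared with the overlapping Gm49369. A p above the threshold does not show equal levels.

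Gaa, the acid alpha-glucosidase that degrades glycogen, was at 18.9 ± 1.12 FPKM in mutant and 18.9 ± 0.544 FPKM in WT libraries (SD, n = 3 each; limma adjusted p = 0.992). Ctsa, the protective protein of other lysosomal enzymes, was at 13.1 ± 0.378 FPKM in mutant and 14.8 ± 0.629 FPKM in WT libraries (SD, n = 3 each; limma adjusted p = 0.0578). Its value is uncertain: exons of Pltp lie over it on the other strand (85.9 FPKM in mutant and 129 FPKM in WT libraries) and the authors' interval reached 97.6% of the value on either side. Ctsa was called lower with quantile normalization (limma adjusted p = 0.0368) and with library weights (0.0347). A filter of 5 FPKM also gave this call (0.0436), and equal totals gave a log2 fold change of 0.15 without a call. Hexa, the alpha subunit of beta-hexosaminidase, was the lowest of the 32 genes, at 1.15 ± 0.324 FPKM in mutant and 1.57 ± 0.341 FPKM in WT libraries (SD, n = 3 each; limma adjusted p = 0.186).

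RefSeq promoters (250 bases before to 50 after a start, GRCm38.p6) were found for 27 of the 32 genes, with 31 starts in all. CACGTG stood in a promoter of 10 of the 27 genes, against 8.09% of the 27025 genes with a promoter in that table. TCACGTGA stood in 4 of them, Atg3, Ctsa, Ctsd and Mcoln1, against 1.12% of genes, and GTAAACA stood in 0, against 4.05% of genes. Of the 4 genes with TCACGTGA, Atg3 fell and the other 3 did not pass. No promoter matched for Gabarap, Gabarapl1, Gabarapl2, Map1lc3b, Sqstm1 or Tfeb held any of the 3 motifs. A match is a run of letters and no evidence of binding. Its absence from these windows says nothing of sites elsewhere or of other spellings of a motif.

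The stretches of 80 bases that hold these matches are shown to let the spacing and repeats be seen, each 5′ to 3′ on the strand of its gene, with matches in capitals. That of Lamp1 is added because it held CACGTG 4 times. The positions are chr7:142387883-142387962 on the minus strand for Ctsd, chr8:3500424-3500503 on the plus strand for Mcoln1, chr16:45158710-45158789 on the plus strand for Atg3, chr2:164833732-164833811 on the plus strand for Ctsa (the second of its RefSeq starts) and chr8:13159086-13159165 on the plus strand for Lamp1.
Ctsd: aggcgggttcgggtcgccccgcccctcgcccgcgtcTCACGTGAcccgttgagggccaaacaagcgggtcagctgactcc
Mcoln1: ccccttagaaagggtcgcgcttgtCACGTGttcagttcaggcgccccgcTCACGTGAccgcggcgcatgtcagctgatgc
Atg3: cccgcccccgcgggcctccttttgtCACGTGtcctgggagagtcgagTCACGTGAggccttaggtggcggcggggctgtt
Ctsa: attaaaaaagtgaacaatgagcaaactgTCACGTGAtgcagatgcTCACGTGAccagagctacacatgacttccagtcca
Lamp1: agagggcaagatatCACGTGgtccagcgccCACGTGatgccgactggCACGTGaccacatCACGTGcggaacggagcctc

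Mcoln1, Atg3 and Ctsa held a pair of matches each within these stretches, and Ctsd a single one. The first base of TCACGTGA lay 99 bases before the start in Ctsd, 72 before it in Atg3 and 46 before it in Mcoln1, and in Ctsa 1 match lay 13 before it and the other began at base 5 after it. In Lamp1 the 4 matches of CACGTG began 61, 45, 28 and 15 bases before the start. The levels of the genes in these lines were given above: Ctsd, Mcoln1, Ctsa and Lamp1 did not pass, and Atg3 fell.

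The wider pathway was read from lists of 135 further genes, of which 128 were tested. In all, 30 were higher and 32 lower, shares of 23.4% and 25.0%, close to the 23.2% and 22.8% of all genes tested. The lists differed in their counts. Of 35 other autophagy genes tested, 5 were higher and 13 lower, with a median log2 fold change of -0.12. Of 40 other hydrolases and their cofactors, 8 were higher and 12 lower (median -0.09). Of 17 other lysosomal membrane proteins, 8 were higher and 2 lower (median 0.13), and of 17 subunits of the vacuolar ATPase, the proton pump that acidifies the lysosome, 4 were higher and 1 lower (median 0.04). With equal totals the 128 genes held 53 higher and 7 lower calls, beside 5375 higher and 842 lower among all 11385 genes tested. Whether the lists differ from each other was not tested.

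**Figure D4:**
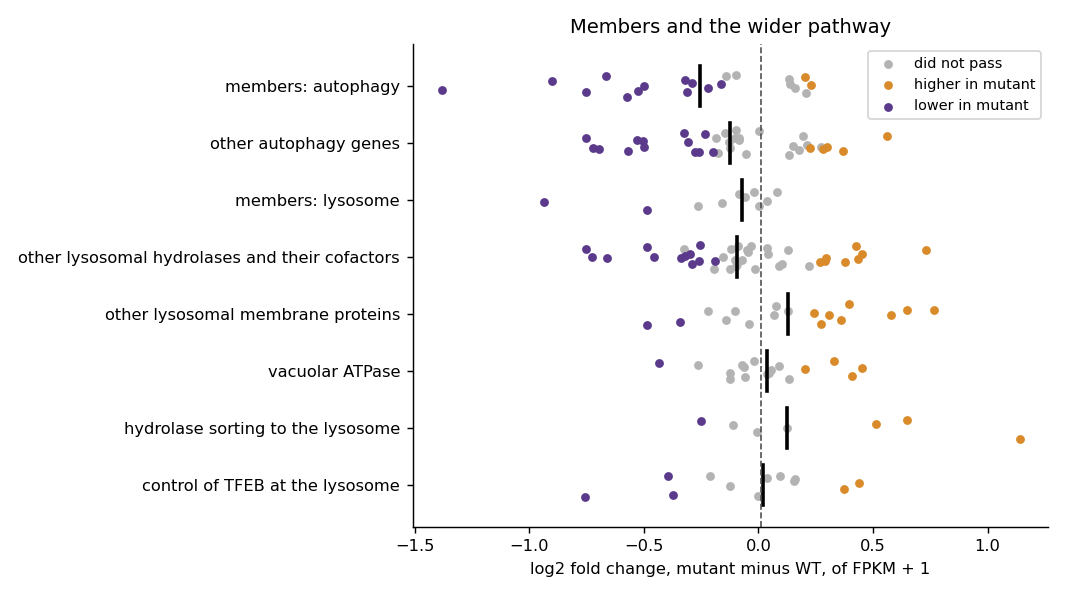
Each point is a gene, placed by its log2 fold change (mutant minus WT, FPKM + 1), in the 32 genes split into autophagy and lysosome (Tfeb and Tfe3 are left out) and in the lists of the wider pathway. Short vertical lines are medians and the dashed line is the median of all genes tested, 0.01. The autophagy rows lie mostly left of the dashed line (medians -0.25 and -0.12), and other lysosomal membrane proteins mostly right of it (median 0.13).

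Among other autophagy genes, the largest falls were those of Bnip3l, Calcoco1 and Wdr45. Bnip3l, a receptor that targets mitochondria to autophagosomes, fell to 48.5 ± 4.26 FPKM in mutant libraries, against 82.4 ± 7.90 FPKM in WT libraries (SD, n = 3 each; limma adjusted p = 0.000486). Calcoco1, a receptor for the endoplasmic reticulum, fell to 20.2 ± 0.213 FPKM in mutant libraries, against 34.1 ± 3.27 FPKM in WT libraries (SD, n = 3 each; limma adjusted p = 0.000214). Wdr45, a PI3P reader of the WIPI family, fell 1.68-fold. The largest rises were those of the ATG8 protease gene Atg4d (log2 fold change 0.56), the class III PI3K cofactor Nrbf2 (0.37) and the SNARE gene Snap29 (0.30). Atg4d was at 13.0 ± 1.26 FPKM in mutant and 8.47 ± 0.652 FPKM in WT libraries (SD, n = 3 each; limma adjusted p = 0.00155).

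Of the other hydrolases, the cysteine proteases Ctsf (2.003-fold), Ctsh (1.68-fold) and Lgmn (1.63-fold) fell, as Ctsl did. Ctsh was at 24.0 ± 3.45 FPKM in mutant and 40.4 ± 4.69 FPKM in WT libraries (SD, n = 3 each; limma adjusted p = 0.00176). Ctsc, the dipeptidyl peptidase cathepsin C, rose to 45.5 ± 3.73 FPKM in mutant libraries, against 27.0 ± 1.06 FPKM in WT libraries (SD, n = 3 each; limma adjusted p = 0.000171). The hyaluronidase gene Hyal1 (log2 fold change 0.45) rose as well. The call of Hyal1 was lost without mutant replicate 1 or mutant replicate 2.

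At the membrane, the amino acid transporter gene Slc36a1 (2.07-fold), the glucocerebrosidase carrier gene Scarb2 (1.60-fold) and Ostm1 (1.62-fold), the partner of the chloride transporter CLC-7, rose. Scarb2 averaged 29.1 FPKM in mutant and 18.2 FPKM in WT libraries (log2 fold change 0.65, SE 0.0642, limma adjusted p = 0.000177). The tetraspanin gene Cd63 (log2 fold change -0.48) and the cholesterol exporter gene Npc1 (-0.34) fell, and both lost the call with equal totals. In the proton pump, the membrane-sector genes Atp6v0a2 (0.45) and Tcirg1 (0.41) and the rotor gene Atp6v1d (0.33) rose, and Atp6v1f fell by 0.43 on the log2 scale, a call lost without mutant replicate 2 and with equal totals.

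Genes that sort hydrolases to the lysosome held the largest rise of the wider pathway. Sort1, the sorting receptor sortilin, was at 11.2, 9.93 and 9.07 FPKM in mutant libraries, against 3.94, 3.78 and 4.31 FPKM in WT libraries. The groups lay far apart, and the rise was 2.51-fold (log2 fold change 1.14, SE 0.0865, limma adjusted p = 4.55e-05). Gnptab and Nagpa, which make and uncover the mannose 6-phosphate tag of hydrolases, rose by 0.51 and 0.65 on the log2 scale, and Gnptg, the gamma subunit gene of the tagging enzyme, was lower by a small margin (log2 fold change -0.25, limma adjusted p = 0.0258), a call lost without mutant replicate 2 or 3 or WT replicate 1 or 2, and with a value of 0.06 with equal totals. In this list 3 of 7 genes were higher and 1 lower, beside 23.2% higher and 22.8% lower among all genes tested.

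Of 12 tested genes that control TFEB at the lysosome or relate to it, 2 were higher and 3 lower. The shares over all genes tested were 23.2% and 22.8%. Folliculin (Flcn) and its partner Fnip1 form the complex through which RagC and RagD present TFEB and TFE3 to mTORC1. Fnip1 was at 6.02, 6.29 and 5.87 FPKM in mutant libraries, against 11.5, 10.95 and 10.4 FPKM in WT libraries, a fall of 1.80-fold (log2 fold change -0.76, limma adjusted p = 8.05e-05). Flcn (log2 fold change -0.37) and Rragd (-0.39) fell too, and both lost the call with equal totals. Rraga, another Rag GTPase gene, rose by 0.44, and Zkscan3, known in human cells as a repressor of autophagy and lysosomal genes, rose by 0.37 on the log2 scale. The TFEB relatives Mitf and Tfec were under the filter.

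Markers of other cells moved with the groups as well. In these bulk samples, fewer cells of a type and less RNA per cell cannot be told apart. Suprabasal keratinocyte markers, 7 of 8 in the table, summed to between 11747 and 14346 FPKM in mutant libraries and to between 3859 and 4659 FPKM in WT libraries. Most of each sum came from Krt1 (means of 5730 FPKM in mutant and 1489 FPKM in WT libraries) and Krt10 (5899 and 1704 FPKM). The 4 called higher were Krt1, Krt10, Dsg1a and Dsc1. Lor was the 1 called lower, at 31.6 ± 15.3 FPKM in mutant and 76.6 ± 24.4 FPKM in WT libraries (SD, n = 3 each), with overlapping groups. Krtdap and Sbsn did not pass. The 3 basal markers named above were called lower. Dermal fibroblast markers summed to between 338 and 380.02 FPKM in mutant libraries and to between 438 and 591 FPKM in WT libraries. Dcn had the highest level of them, with means of 215 FPKM in mutant and 272 FPKM in WT libraries. Of 7 tested, 3 were called lower (Dcn, Thy1 and Vim) and 0 higher. The shares over all genes tested were 22.8% lower and 23.2% higher. Col1a1, Col1a2, Col3a1 and Lum did not pass.

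The 13 markers of macrophages and Langerhans cells in the table summed to between 12.5 and 14.6 FPKM in mutant libraries and to between 15.1 and 21.2 FPKM in WT libraries. Of these, Cd207 was listed at 0 in all libraries, and Csf1r, Adgre1, Lyz2, Ptprc and Mrc1 were each under a mean of 1 FPKM. Adgre1, Ptprc and Mrc1 had the higher mean in mutant libraries, and Csf1r and Lyz2 in WT libraries. Of the 7 tested, Cd68, C1qc and Fcer1g were called lower and 0 were called higher. The shares over all genes tested were 22.8% lower and 23.2% higher. C1qa, C1qb, Cd74 and Tyrobp did not pass. Melanocyte markers summed to between 11.4 and 15.5 FPKM in mutant libraries and to between 16.2 and 22.2 FPKM in WT libraries, with Tyr, Tyrp1, Kit and Sox10 under a mean of 1 FPKM. All 5 endothelial markers were under that mean. The part of these markers' cells in the results above was not tested.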

How the data were processed

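RNA was extracted with a column kit from cells sorted for high α6 integrin, and the 6 libraries followed Illumina's usual protocol, per the labels' protocols. The authors' deposited FPKM values, with a lower and an upper bound for each, came from TopHat and Cufflinks, per the submitters' processing notes. The sources used here give no versions, settings, strand or library total, so depth and counts are unknown. The notes name mm9, but the loci of 98.9% of 23315 genes overlapped the gene of that symbol in GENCODE M21 (GRCm38), and all 32 genes described did. Positions were read as GRCm38.

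Values were tested on log2(FPKM + 1) with limma 3.58.1 in R 4.3.3 (empirical Bayes with an intensity trend, Benjamini-Hochberg adjustment over all 11385 genes that averaged 1 FPKM or more). The test was checked on simulated data, with planted changes and independent noise drawn from the fitted variances. This check cannot speak to library scaling or to technical replicates, as it included neither. An exact permutation test of 3 against 3 libraries cannot go under p = 0.1. Tables and figures used Python 3.11.15, numpy 2.4.6, pandas 2.3.3 and matplotlib 3.10.9. Promoters are from RefSeq (GRCm38.p6), and overlaps and shared 50-base stretches from GENCODE M21. Deposited intervals reached between 34.9% and 35.2% of the value on either side (median gene of each library).

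The genes and lists were chosen with earlier results of these data known. Values in every library were given for the ATG8 family, Sqstm1, Tfeb, Tfe3 and the called members with the largest changes and groups apart, up to 8 in each direction, and wider-pathway genes were named by the largest called change, up to 3 in each direction per list, of which 1 is not reported here. Other genes given by library (Wipi2, Lamp1, Lamp2, Ctsz, Ctsd, Ctsb), and Rb1cc1, Atg101 and the genes overlapping a member, were chosen after their values were seen. Alternatives covered the pseudocount, the filter, library scaling, the variance trend, weighted libraries, blocking by replicate number, the threshold and leaving out each library. A planned comparison of ATG8 protein sequences was not made, as no protein table was used here.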

Additional observations from a re-analysis of the deposited data

How the results depend on the processing

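Of the 18 called members, 7 kept their call and direction in all 17 alternatives (16 for Tfeb, which 1 filter removed): Gabarapl1, Map1lc3a, Map1lc3b, Sqstm1, Atg14, Ctsl and Tfeb. Scaling libraries to the same total changed most. It gave 5375 higher and 842 lower genes, 11 higher and 6 lower members, and 53 higher and 7 lower wider-pathway genes. It reversed the sign of Ulk1 (0.22), Atg13 (0.00274), Wipi2 (0.0263), Atg4b (0.15), Atg7 (0.17), Atg12 (0.10), Gabarap (0.0104), Lamp1 (0.25), Mcoln1 (0.24), Ctsa (0.15), Ctsb (0.31) and Gnptg (0.0557). It moved the median gene to 0.30. Quantile normalization gave 6 higher members, beside 3012 higher among all genes tested, and reversed Lamp1 (0.15) and Ctsb (0.0722). Gaa, with a log2 fold change near 0, was at -0.0103 under median ratio scaling. Leaving out 1 library gave between -0.0450 (without mutant replicate 1) and 0.0248 for Gaa, between -0.0456 and 0.0220 (without mutant replicate 1) for Ctsb, and between -0.00850 (without WT replicate 3) and 0.0682 for Lamp2. Gaa was also below 0 without WT replicate 1 or WT replicate 2. The cause of these changes was not tested.

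The 3 higher members became 1 with no filter on low values, 1 at a mean of at least 5 FPKM (which removes Tfeb and Ulk2), 1 at a threshold of 0.01 and 5 with library weights. That threshold also gave 1554 higher and 1634 lower genes, and 19 higher and 20 lower wider-pathway genes. Leaving out each library gave between 1922 and 2597 higher and between 1957 and 2610 lower genes, between 1 and 3 higher and between 12 and 15 lower members, and between 21 and 29 higher and between 23 and 36 lower wider-pathway genes. Samples share replicate numbers, but the labels state no pairing, and the main fit took none. The deviations of same-numbered samples correlated at 0.127, 0.122 and -0.00735 across genes, and those of differently numbered samples between -0.157 and 0.0619. The values for replicates 1 and 2 were the highest of all these pairs. Whether the samples are paired is unknown. With the replicate block, 1 member was higher and 12 lower, and 1889 genes were higher and 1909 lower. Of the 30 wider-pathway genes that the naming rule took, 22 kept their call and direction throughout. Depth is unknown, and the deposited intervals of Hexa, Tfeb, Wipi1 and Ctsa were the widest among the members.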
